A study of Mus musculus with 20 samples.

Results

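Regulatory T cells (Tregs) in the spleens and lymph nodes of transgenic mice were picked out of single-cell RNA-sequencing (scRNA-seq) libraries by their Foxp3 transcript. Of 97181 cells kept in 20 libraries, 178 (0.183%) met the rule and are called Foxp3 T cells below. Cells were kept from 1500 unique molecular identifiers (UMIs, 1 per captured RNA molecule) and 200 genes upward if mitochondrial transcripts made up no more than 10% of UMIs. The Foxp3 T cells were chosen by measured counts: each had at least 2 UMIs of the CD3 genes Cd3d, Cd3e and Cd3g, at most 1 of the B-cell genes Cd79a and Cd79b, at least 1 Foxp3 UMI and none of Cd8a or Cd8b1. The same gate with at least 1 Cd4 UMI and no Foxp3 UMI gave 2768 comparison cells, called Cd4 T cells below. Both classes together are the Cd4-lineage cells.

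Tregs are CD4 T cells that hold other lymphocytes in check. The transcription factor Foxp3 fixes their identity. They carry the high-affinity IL-2 receptor chain CD25 (Il2ra) and the inhibitory receptor Ctla4, and many carry the transcription factor Helios (Ikzf2). In spleen and lymph node, resting Tregs recirculate through the T-cell zones, whereas effector Tregs lose the homing receptors of resting cells and gain others such as Ccr8 and Klrg1. Tregs act through contact, cytokines and consumption of IL-2, and in B-cell tumours they belong to the non-malignant immune cells around the leukaemia.

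The libraries came from 13 mice with 3 genotypes, labelled as strain C57BL/6N, whereas the study's methods place the Eµ-TCL1 cross on C57BL/6J. Eµ-PRMT5 mice carry human PRMT5, an arginine methyltransferase; Eµ-TCL1 mice carry human TCL1, an oncogene; Eµ-PRMT5/TCL1 mice carry both. The study bred several founders and characterized 1 line in full, and it also made Eµ-PRMT5/TCL1 crosses from the other founder lines. The labels do not say which line each sequenced mouse came from, and the mouse of Eµ-PRMT5 spleen 3 bears a name that the methods give to a founder. Every group was transgenic, with the transgene expressed in B cells from an immunoglobulin promoter and enhancer and not in T cells by design, and wild-type tissue was not analysed here. The study took tissue when mice reached its early removal criteria, so disease stage and age were not matched by the labels. The mouse name of Eµ-PRMT5/TCL1 spleen 1 and lymph node 2 ends in RT, which the labels do not explain. Cells were viable cells without sorting for lineage. Eµ-PRMT5 gave 5 spleens, Eµ-TCL1 4 spleens and 3 lymph nodes, and Eµ-PRMT5/TCL1 4 spleens and 4 lymph nodes. In 7 mice both tissues were sequenced. A library is 1 tissue of 1 mouse, and p-values below measure the spread between libraries.

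Whole libraries held 9348094 to 72440894 UMIs and 784 to 8631 kept cells. The Foxp3 T cells had 1540 to 22138 UMIs, with a median of 4221.5. Among the 178 there were 378 Foxp3 UMIs in all, with at most 9 in a cell, so that 91 cells rested on a single Foxp3 UMI, 40 had 2 and 47 had 3 or more. A Cd4 UMI was present in 90 of the 178 (50.6%), which the rule did not require. Just outside the rule lay 14 Foxp3 cells with a single CD3 UMI, 113 with 2 or more Cd79 UMIs and 70 T cells with a Cd8 UMI. Of the 178 cells, 41 had at least 2 times the median UMIs of the T cells in their library, a group in which doublets are more frequent. That is 23.03%, against 4.43% of all T cells and 11.2% of Cd4 T cells, and no doublet caller was run. Without such cells the spleen comparison of gene expression had 4 libraries and 186 calls, against 86 from 5 libraries with them. Of their barcodes, 20 (11.2%) also occurred among the kept cells of another library, as did 11.8% of all kept barcodes, 2 were Foxp3 T cells in both, and 3 occurred in the other tissue of the same mouse.

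Of 473 kept cells with a Foxp3 UMI, 178 (37.6%) met the rule. Since the rule used Foxp3, its share by class is a description. A Foxp3 UMI was found in 2.03% of 8788 T cells without Cd8 UMIs, in 0.269% of 26068 T cells with Cd8 UMIs and in 0.116% of 36986 B cells (Cd79a and Cd79b summing to at least 2, no CD3 UMI). The B cells were deeper, with library medians of 4057 to 15904 UMIs against 2514 to 5215 in T cells without Cd8 UMIs. The part of depth in these shares was not tested. Free RNA in droplets can put a UMI into a cell that does not make it, and the B-cell share is the background measured the same way.

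The 3 other markers were all higher in Foxp3 T cells than in Cd4 T cells of the same mice. Il2ra averaged 88.9 ± 41.0 CPM (UMIs scaled to 1000000) against 17 ± 12.5 (SD, 11 mice), higher in 11 of 11 mice (exact sign-flip permutation p = 0.000977, the smallest it can give, adjusted p = 0.00146). Ikzf2 averaged 551 ± 209 against 142 ± 88.7 CPM and was also higher in 11 of 11 (exact permutation p = 0.000977, adjusted p = 0.00146). Ctla4 averaged 659 ± 220 against 346 ± 348 CPM and was higher in 10 of 11 (exact permutation p = 0.00684, adjusted p = 0.00684). These tests sum both tissues per mouse and were chosen after the data were seen. In single cells, 33 of the 178 (18.5%) had UMIs of all 3 markers, 95 (53.4%) of a pair, 43 (24.2%) of only 1 and 7 (3.93%) of none.

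Cells with more Foxp3 UMIs held Ikzf2 more often, as a description without a test. Of the 91 cells with a single Foxp3 UMI, 72.5% had Ikzf2, 79.1% Ctla4 and 22% Il2ra. Of the 47 with 3 or more, 89.4% had Ikzf2, 80.9% Ctla4 and 27.7% Il2ra. Median depth was 3616 UMIs in the first and 4916 in the second, and its part in this was not tested.

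Cells per library ranged from 0 to 37. The 5 Eµ-PRMT5 spleens gave 37, 11, 18, 0 and 5 Foxp3 T cells, the 4 Eµ-TCL1 spleens 8, 2, 1 and 1, and the 4 Eµ-PRMT5/TCL1 spleens 10, 4, 4 and 21. The 3 Eµ-TCL1 lymph nodes gave 5, 3 and 8, and the 4 Eµ-PRMT5/TCL1 lymph nodes 2, 9, 16 and 13. Eµ-TCL1 mice therefore contributed 28 cells of the 178, from 7 libraries.

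As a share of all kept cells, Foxp3 T cells were 0.797%, 1.08%, 0.347%, 0 and 0.0837% in Eµ-PRMT5 spleens 1 to 5. The zero came from 4603 cells, which allows a share of up to 0.0652% by a floor of 3 counts and 0.0801% by the 95% exact binomial interval. Only 128 of these were T cells and 22 were Cd4 T cells, so of Cd4-lineage cells the same interval allows up to 15.4%. Eµ-PRMT5 spleen 5 had 4907 T cells but only 13 Cd4 T cells. Eµ-TCL1 spleens 1 to 4 had 0.126%, 0.0290%, 0.0200% and 0.0175%. Eµ-PRMT5 spleens spanned the whole range seen in the series, with 3 libraries above every other spleen except Eµ-PRMT5/TCL1 spleen 4, while 3 of 4 Eµ-TCL1 spleens lay at the bottom. Eµ-PRMT5/TCL1 spleens 1 to 4 had 0.168%, 0.108%, 0.0853% and 0.389%. Lymph nodes were narrower, at 0.122%, 0.0897% and 0.166% in Eµ-TCL1 and 0.255%, 0.192%, 0.283% and 0.151% in Eµ-PRMT5/TCL1.

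**Figure D1:**
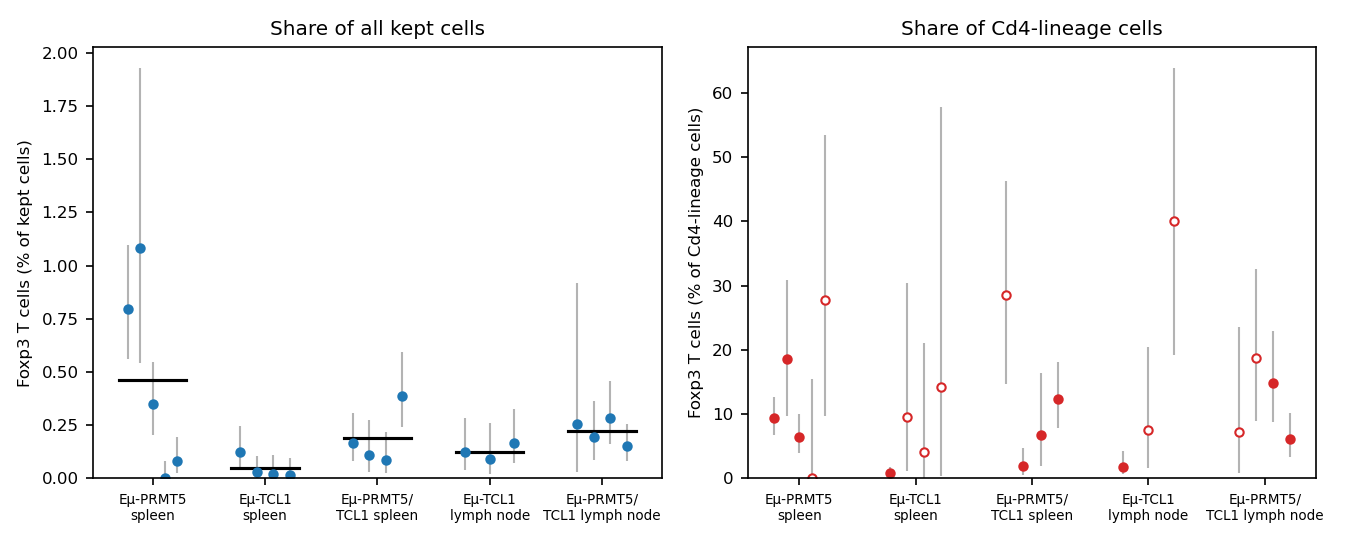
Foxp3 T cells in each library as a percentage of kept cells (left, black bars are group means) and of Cd4-lineage cells (right), with 95% exact binomial intervals as grey lines. Open points have under 50 Cd4-lineage cells; the Eµ-PRMT5 spleens spread from 0 to 1.08% of kept cells.

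No difference in these shares passed its test. Eµ-PRMT5 spleens averaged 0.462% ± 0.46598 (SD, n = 5) against 0.0481% ± 0.0522 (n = 4) in Eµ-TCL1 (2-sided exact permutation p = 0.135, adjusted p = 0.315 over 7 share tests). Eµ-PRMT5 spleens 4 and 5 lay within the range of the Eµ-TCL1 spleens or below it. The 5 Foxp3 T cells of spleen 5 had a median of 16291 UMIs, against 4657 in the Cd4 T cells beside them. Eµ-PRMT5/TCL1 spleens averaged 0.187% ± 0.139 (n = 4), against Eµ-TCL1 with exact permutation p = 0.0857 (adjusted p = 0.315) and against Eµ-PRMT5 with exact permutation p = 0.357 (adjusted p = 0.417). In lymph node, Eµ-PRMT5/TCL1 averaged 0.220% ± 0.0599 (n = 4) and Eµ-TCL1 0.126% ± 0.0385 (n = 3), with 1 Eµ-PRMT5/TCL1 node (0.151%) below the highest Eµ-TCL1 node (exact permutation p = 0.114, adjusted p = 0.315). With each cell thinned to equal depth, as for gene shares below, the expected shares in Eµ-PRMT5/TCL1 nodes were 0.111%, 0.106%, 0.116% and 0.0831%. Those in Eµ-TCL1 nodes were 0.0649%, 0.0590% and 0.0665%, without overlap, but the exact permutation p of this thinned contrast also stayed above 0.05. In spleen the thinned shares of the genotypes still overlapped.

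Between tissues of the same mouse, the lymph node share averaged 0.180% and the spleen share 0.132%, with the node higher in 5 of 7 mice (exact sign-flip permutation p = 0.281, adjusted p = 0.394). With T cells of 2 times the T-cell median UMIs or more not counted as Foxp3 T cells, the node was higher by 0.0646 percentage points. The exact permutation p was 0.0156, the smallest possible. Such cells stayed in the count of all kept cells. With at least 2 Foxp3 UMIs asked for, the difference was -0.000302 percentage points (exact permutation p = 1). The size of the difference between tissues therefore depended on how a Foxp3 T cell was counted.

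The share of Cd4-lineage cells could be read only in 10 libraries with at least 50 such cells. It was 9.39%, 18.6% and 6.5% in Eµ-PRMT5 spleens 1 to 3, 0.877% in Eµ-TCL1 spleen 1, and 1.85%, 6.78% and 12.3% in Eµ-PRMT5/TCL1 spleens 2 to 4. In lymph node it was 1.82% in Eµ-TCL1 node 1 and 14.8% and 6.10% in Eµ-PRMT5/TCL1 nodes 3 and 4. The rule asked a Cd4 UMI of the Cd4 T cells only, so Foxp3 T cells without one raise this share. With a Cd4 UMI asked of both, these spleens stood, in the same order, at 4.29%, 7.69%, 4.07%, 0.331%, 0.935%, 5.17% and 7.98%. The nodes then stood at 0.738%, 9.80% and 2.91%. The Eµ-TCL1 value of 0.877% (8 of 912 cells, 95% exact binomial interval 0.379 to 1.72%, for counting error only) was the lowest of the 10, and its interval overlapped that of Eµ-PRMT5/TCL1 spleen 2 (0.507 to 4.67%). Eµ-TCL1 spleens 2 to 4, with only 21, 24 and 7 such cells, stood at 9.52%, 4.17% and 14.3%. With a single Eµ-TCL1 library in each tissue there is no test, and its denominator was unusual in a way described below. Eµ-PRMT5/TCL1 and Eµ-PRMT5 spleens averaged 6.97% ± 5.22 and 11.5% ± 6.34 (n = 3 each, exact permutation p = 0.5, smallest possible 0.1). In 3 mice with both tissues the node was higher in 3 of 3, at a mean of 7.58% against 3.17% (exact sign-flip permutation p = 0.25, the smallest that 3 pairs allow). With at least 2 Foxp3 UMIs asked for, the mean difference was -0.103 percentage points, from 1 mouse. The nodes then stood at 0.738%, 2.91% and 3.16%, against 0.550%, 1.40% and 5.17% in the spleens of the same mice. In 7 spleens no relation to the B-cell share of all cells was detected. Pearson r was 0.584 (permutation p = 0.166) and Spearman rho 0.571 (permutation p = 0.2). Without the 2 spleens farthest from the median B-cell share r was 0.397 (permutation p = 0.483). The B-cell share counts leukaemic and other B cells alike, and tumour load was not measured.

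Gene expression was compared within libraries, so that mouse and genotype cancel. UMIs were summed per library and class, and libraries with at least 10 Foxp3 T cells entered: Eµ-PRMT5 spleens 1, 2 and 3, Eµ-PRMT5/TCL1 spleens 1 and 4, and Eµ-PRMT5/TCL1 lymph nodes 3 and 4. No Eµ-TCL1 library had enough cells. Values below are listed in that order. In the 7 libraries the Foxp3 sums held 51040 to 223738 UMIs and the Cd4 sums 130593 to 1660325.

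In spleen, 86 of 3068 genes passed edgeR's quasi-likelihood test at an adjusted p under 0.05 (2.8%), 52 higher in Foxp3 T cells (1.69%) and 34 lower (1.11%). DESeq2 called 83 (2.71%), 52 higher and 31 lower (1.01%). With 9 spleens of at least 3 Foxp3 T cells, 69 of 1955 genes passed (3.53%), 42 higher (2.15%) and 27 lower (1.38%). Leaving out Eµ-PRMT5 spleen 1 reduced the count to 44 and leaving out Eµ-PRMT5 spleen 3 to 49.

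Among the transcription factors, Ikzf2 and Ikzf4 stood out. Ikzf2, which encodes Helios, was at 608, 781, 1022, 627 and 499 CPM in the Foxp3 T cells of the 5 spleens and at 161, 123, 247, 153 and 47.4 CPM in their Cd4 T cells. The ranges did not overlap, and the log2 change was 2.29 ± 0.22 (SE, adjusted p = 3.52e-05). Ikzf4, which encodes the related factor Eos, a Foxp3 partner, was at 84.9, 165, 210.1, 137 and 125 against 21.1, 16.4, 10.02, 23 and 7.18 CPM, again without overlap (3.02 ± 0.37, adjusted p = 0.000323). Tcf7, which encodes a factor of resting and memory-like T cells, was lower in all 5 spleens, at 62.6, 45.1, 112, 0 and 17.8 against 138, 279.5, 243, 61.3 and 56 CPM (-1.61 ± 0.30, adjusted p = 0.00808). Nr4a2 (-1.25 ± 0.24) and Nfatc1 (-1.40 ± 0.27), both engaged by T-cell receptor signalling, were lower as well. Their calls were lost without Eµ-PRMT5/TCL1 spleen 4 (adjusted p = 0.0881) and without Eµ-PRMT5 spleen 1 (adjusted p = 0.0697). Of 31 listed Treg transcription factors, 24 were measured well enough to test, 2 were higher and 3 lower, and their median log2 change was 0.19 against -0.02 over all 3068 genes. The other 19 did not pass, among them Batf (0.37 ± 0.24), Maf (0.26 ± 0.23) and Gata3 (0.20 ± 0.26).

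Receptors and surface proteins showed the largest single test statistic. Tnfrsf9, which encodes the costimulatory receptor 4-1BB, was at 1068, 841, 2535, 1509 and 1204 CPM in Foxp3 T cells and at 207, 168, 474, 521 and 263 CPM in Cd4 T cells. Every Foxp3 value exceeded every Cd4 value (2.12 ± 0.16, adjusted p = 3.84e-06). Lrrc32, which encodes GARP, the surface anchor of latent TGF-beta, was at 192, 255, 140.1, 216 and 357 against 32.5, 20.6, 21.1, 7.66 and 21.6 CPM (3.14 ± 0.28, adjusted p = 3.17e-05). The lowest Foxp3 library was again well above the highest Cd4 library. Ctla4 was at 652, 721, 784, 607 and 1115 against 421, 197, 382, 260.4 and 320.4 CPM (1.22 ± 0.19, adjusted p = 0.00282). Of 22 listed surface genes, 16 were tested, 3 were higher and 0 lower, with a median change of 0.56. The other 13 did not pass in spleen. Tigit (0.95 ± 0.27, adjusted p = 0.0777) and Izumo1r, the folate receptor family member FR4 (1.03 ± 0.29, adjusted p = 0.0777), were nearest, whereas Tnfrsf4, the receptor OX40 (0.43 ± 0.31, adjusted p = 0.546), was not. Il2ra was too low in counts to be tested in this fit.

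**Figure D2:**
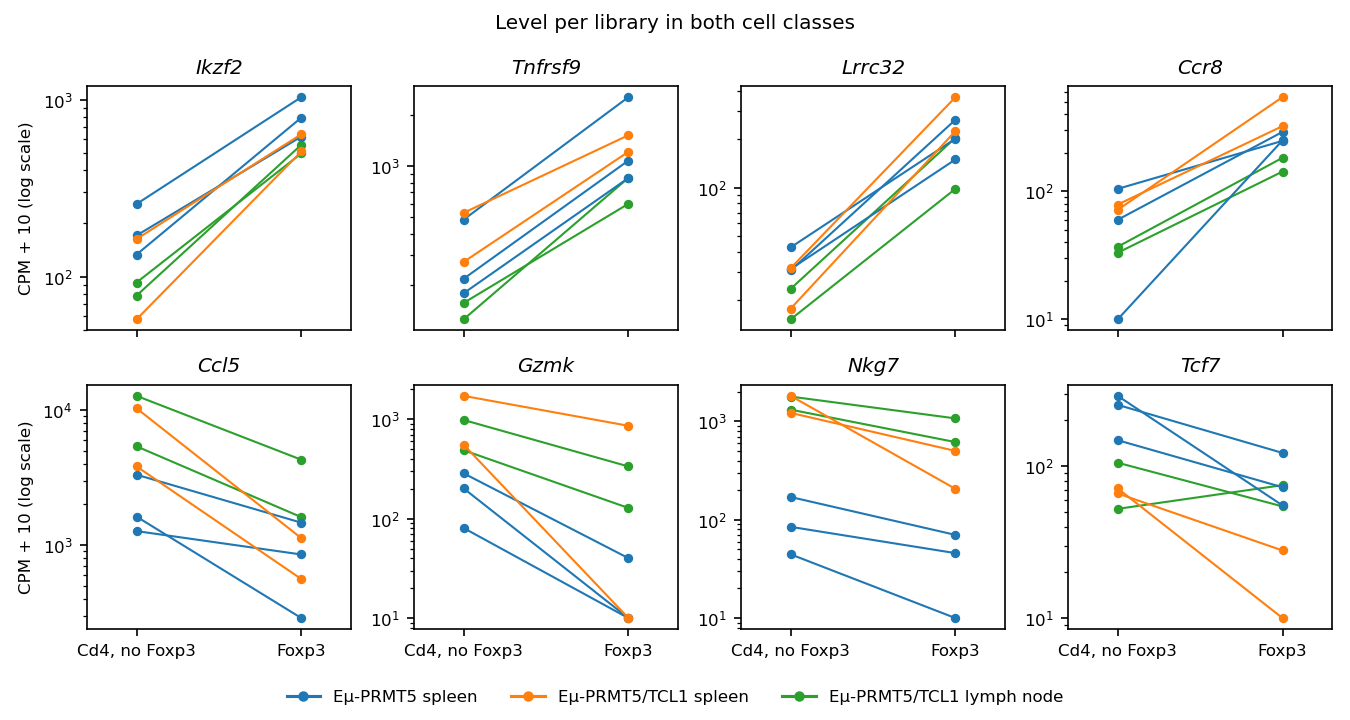
Level of 8 genes in the Cd4 T cells (left) and Foxp3 T cells (right) of the 7 libraries with at least 10 Foxp3 T cells, as CPM plus 10 on a log axis, with 1 line per library. The 4 upper genes rise in every library; Ccl5, Gzmk and Nkg7 fall in every library, and Tcf7 falls in all but Eµ-PRMT5/TCL1 lymph node 3.

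Sequence before the start sites of these genes was searched as a description. RefSeq promoters (GRCm38.p6) were matched by symbol for 31 of the 52 higher genes and 28 of the 34 lower genes, with 35 and 34 start sites. The 250 bases before each start were scanned on both strands for the forkhead letters TGTTTAC, the NF-kB letters (GGG and TTCC parted by any 3 bases), the AP-1 letters TGANTCA and the RUNX letters TGTGGTT. The forkhead letters were in 0 of 35 start sites of higher genes and in 3.17% of all 32851 promoters. NF-kB letters were in 4 of 35 (11.4%), those of Cmtm7, Pglyrp1, Tnfrsf9 and Vim, and in 11.8% for the lower genes, against 4.65% of all promoters. AP-1 letters were in 3 of 35 (8.57%) and in 2.94% for the lower genes, against 6.75% of all promoters. RUNX letters were in 0 of 35 and 0 of 34, against 4.40%. Over the 3089 promoters of genes tested in spleen the shares were 5.73% for the NF-kB letters, 2.17% for the forkhead letters, 4.27% for AP-1 and 3.27% for RUNX. Tnfrsf9, with the smallest adjusted p, and Il2ra, the defining receptor, are shown 5′ to 3′ on the plus strand, with matched letters in capitals. At the second Tnfrsf9 start (chr4:150927749-150927998) an NF-kB match stands 5′ of an AP-1 match, and before Il2ra (chr2:11642542-11642791) an NF-kB match reads on the minus strand. The windows before the first Tnfrsf9 start (chr4:150919905-150920154) and before Ctla4 held none of the 4.
Tnfrsf9: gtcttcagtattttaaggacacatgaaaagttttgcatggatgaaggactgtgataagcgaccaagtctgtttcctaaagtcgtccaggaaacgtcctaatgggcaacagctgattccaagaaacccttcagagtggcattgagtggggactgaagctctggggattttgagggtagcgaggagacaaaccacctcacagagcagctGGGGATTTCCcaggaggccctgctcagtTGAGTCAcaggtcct
Il2ra: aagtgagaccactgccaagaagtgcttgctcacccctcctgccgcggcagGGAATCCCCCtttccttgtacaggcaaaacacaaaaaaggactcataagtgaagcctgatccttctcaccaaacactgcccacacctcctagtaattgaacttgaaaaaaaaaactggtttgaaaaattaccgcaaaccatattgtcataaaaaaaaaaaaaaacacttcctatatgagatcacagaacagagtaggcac
A match is a run of letters and not a shown binding site.

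Mediators and homing receptors of effector Tregs formed the next group. Ccr8, a chemokine receptor of effector Tregs in tissue and tumours, was at 282, 240.4, 238, 314 and 535 CPM in Foxp3 T cells against 49.99, 0, 94.6, 68.9 and 61.8 CPM (2.50 ± 0.34, adjusted p = 0.000929). Il1r2, the decoy receptor that binds IL-1 without signalling, was at 353, 316, 70.03, 568 and 375 against 63.2, 24.7, 96.8, 61.3 and 93.4 CPM. It was higher in 4 of 5 spleens, with Eµ-PRMT5 spleen 3 the exception (2.09 ± 0.35, adjusted p = 0.00418, but 0.0585 without Eµ-PRMT5 spleen 1). Ccr2 (1.34 ± 0.31) and Itgb7, an integrin chain used for homing to gut (1.10 ± 0.20), were also higher. The Ccr2 call was lost on leaving out any of 4 libraries, and that of Itgb7 without Eµ-PRMT5 spleen 3 (adjusted p = 0.0536). Of 19 listed mediators, 9 were tested, 2 were higher and 0 lower (median 0.74). Areg, a repair factor (1.26 ± 0.33, adjusted p = 0.0579), Penk, the enkephalin precursor (1.12 ± 0.40), Tgfb1 (0.15 ± 0.21) and Lag3 (-0.79 ± 0.24) did not pass, and Il10 was too low to test. In the 9 spleens of at least 3 Foxp3 T cells Lag3 did pass as lower (-1.29 ± 0.33, edgeR adjusted p = 0.0387). Of 21 homing genes, 16 were tested, 3 were higher and 0 lower (median -0.22).

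Further genes led the ranking that belong to no list. Tmem158 (3.37 ± 0.39, adjusted p = 0.000252), a membrane protein, was at 206, 210.3, 126, 255 and 107 CPM against 16.9, 0, 10.02, 7.66 and 28.7 CPM. Lamc1, a laminin chain (3.12 ± 0.38), Slc16a3, the lactate transporter MCT4 (2.45 ± 0.37), and Matk, a kinase that restrains Src-family kinases (2.38 ± 0.29), were higher in every spleen. Capg, an actin-capping protein (1.62 ± 0.16, adjusted p = 6.04e-05), Cd81, a tetraspanin (2.06 ± 0.36), and Hopx, a homeodomain cofactor (1.11 ± 0.16), were higher in 5 of 5 and kept their call with any library left out. The last 3 were named after their values were seen.

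Among the lower genes were Eomes, Ccl5, Nkg7 and Gzmk. Eomes, a transcription factor of cytotoxic cells, was at 8.94, 15, 0, 0 and 80.3 CPM in Foxp3 T cells against 60.8, 103, 81.2, 168 and 473 CPM (-2.95 ± 0.36, adjusted p = 0.000323). Ccl5, a chemokine of effector T cells, was at 845, 1457, 280.1, 1117 and 553 against 1262, 3305, 1616, 10230 and 3805 CPM (-2.04 ± 0.30, adjusted p = 0.0015). Nkg7, a granule protein, was at 35.8, 60.1, 0, 196 and 490.5 against 74.7, 160.3, 34.5, 1807 and 1210 CPM (-1.85 ± 0.31, adjusted p = 0.00361). All 3 were lower in every spleen. Gzmk, granzyme K, was listed at 0 in 3 of 5 Foxp3 sums and at 847 CPM in Eµ-PRMT5/TCL1 spleen 4 (-2.34 ± 0.47, adjusted p = 0.0124). That library set its size: left out, the change was -5.23. The Gzmk call was lost without Eµ-PRMT5 spleen 3 (adjusted p = 0.0622). Fasl (-1.82 ± 0.36) was also lower but lost its call without Eµ-PRMT5 spleen 1 (adjusted p = 0.0705). Of 7 listed NK and cytotoxic markers, only 2 were tested and both were lower, beside 1.11% of all tested genes. Their summed level over the 7 libraries ran from 294 to 5489 CPM in Foxp3 T cells and from 1365 to 14470 CPM in Cd4 T cells.

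Tnfsf8, which encodes CD30 ligand, had levels that lay apart by genotype in Cd4 T cells, a difference not tested here. Such separation of 3 against 2 libraries is frequent without any difference. In the Cd4 T cells of Eµ-PRMT5 spleens it was at 919, 793 and 946 CPM, and in those of Eµ-PRMT5/TCL1 spleens at 107 and 34.5 CPM. Foxp3 T cells had 165, 195, 140, 118 and 8.92 CPM (-2.24 ± 0.29, adjusted p = 0.000549), not lower in Eµ-PRMT5/TCL1 spleen 1. The Tnfsf8 call held with any single one of the 5 libraries left out. It was lost in 13 of 28 alternatives, over which the change ran from -2.74 to -1.10. Gtf2i (-1.92 ± 0.38) and Hmgn1 (-1.62 ± 0.30), a general transcription factor and a nucleosome-binding protein, lost their call without Eµ-PRMT5 spleen 3. Nmrk1, a nicotinamide riboside kinase (-1.66 ± 0.40, adjusted p = 0.0391), lost it on leaving out any of 3 libraries. Zap70, a kinase (-0.89 ± 0.19), Cd247, the CD3 zeta chain (-0.84 ± 0.20), and Lat, an adaptor (-0.68 ± 0.17), belong to no list used here and were picked out once values were known. Each was lower in 5 of 5 spleens and lost its call on leaving out any of 3 or 4 libraries.

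**Figure D3:**
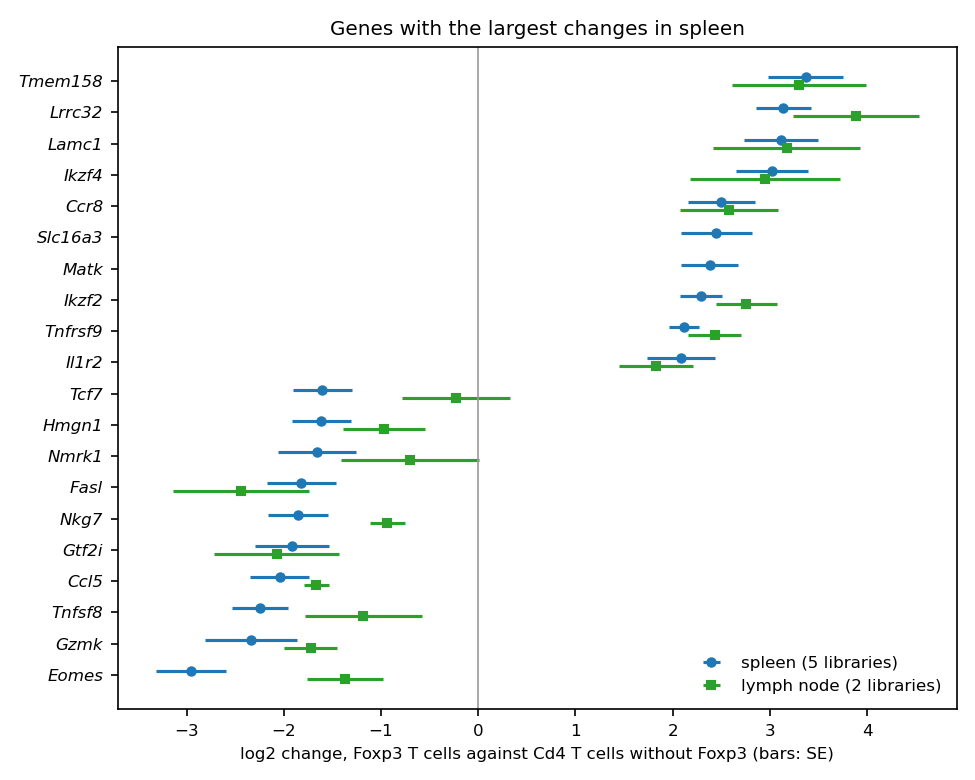
Log2 change with its SE for the 10 highest and 10 lowest ranked genes in spleen (blue, 5 libraries) and the same genes in lymph node where tested (green, 2 libraries). The node changes have the sign of the spleen changes for all genes shown; Tcf7 in node lies within 1 SE of 0.

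The remaining gene lists showed few calls in spleen. Of 13 resting T-cell genes, 8 were tested and only Tcf7 passed (median -0.50), with S1pr1, the receptor for exit from lymphoid tissue, at -0.64 ± 0.19 (adjusted p = 0.0984) and lower in 5 of 5. Of 22 interferon response genes, 11 were tested and 2 were higher, Ifi27l2a (1.45 ± 0.25, adjusted p = 0.00418) and Ly6e (0.69 ± 0.13, adjusted p = 0.00661), and both kept their call with any library left out. Of 16 TNF receptor and NF-kB genes, 15 were tested and only Tnfrsf9 passed, with 12 of 15 changes positive (median 0.25). Of 16 immediate early and stress genes, 11 were tested, 1 was lower (Ier2, -0.99 ± 0.20, its call lost without Eµ-PRMT5 spleen 1 at an adjusted p of 0.0597) and 10 of 11 changes were negative (median -0.58), Fos at -1.55 ± 0.42 (adjusted p = 0.0684). None of 7 tested cell-cycle genes passed (median 0.23), and none of 7 tested IL-2 and STAT5 responsive genes (median -0.03). Of 13 helper and follicular helper genes, 2 were tested and 1 was lower, Tbc1d4 (-1.17 ± 0.22), a call lost without Eµ-PRMT5 spleen 1 or 3 (adjusted p up to 0.0703). These medians stand beside -0.02 over all genes.

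B-cell transcripts were present in both classes. The 9 listed B-cell markers summed to 644 to 7197 CPM (median 1180) in Foxp3 T cells and 230 to 4353 CPM (median 993) in Cd4 T cells of the 7 libraries. In spleen 4 were tested, 0 passed and all 4 changes were positive, Cd74 at 0.79 ± 0.43. Ighm, the immunoglobulin mu chain, named after its values were seen, was higher (1.62 ± 0.23, adjusted p = 0.00129). B cells themselves often carried Capg (80% with a UMI), Cd81 (76.2%) and Ctla4 (28.6%), but rarely Ikzf2 (0.181%), Tnfrsf9 (1.61%) or Lrrc32 (0.184%). Among cells with no Cd79 UMI at all (4 spleens), Capg changed by 1.65, Cd81 by 2.08, Ctla4 by 1.28, Ikzf2 by 2.36 and Tnfrsf9 by 2.27, all still called. Over all alternatives in spleen, Cd81 lost its call in 2 of 27 (lowest change 0.783) and Ctla4 in 9 of 29 (0.656). Tnfrsf9 lost it in 1 of 29, and Capg and Ikzf2 in 0 of 29. The part of B-cell RNA in these changes was not tested. Monocyte markers summed to 0 to 1605 CPM in Foxp3 T cells and 59.6 to 1441 CPM in Cd4 T cells, both highest values owed mainly to Lyz2. Gamma delta T markers reached at most 45.1 CPM, neutrophil markers 56.0 CPM and erythroid markers 22.4 CPM in Foxp3 T cells, and plasma-cell markers ran from 140 to 437 CPM.

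In lymph node the fit had only 2 libraries and 1 residual degree of freedom. It called 67 of 4317 genes (1.55%), 48 higher (1.11%) and 19 lower (0.44%), but DESeq2 called 11 (0.255%), 7 higher (0.162%) and 4 lower (0.0927%). With 6 nodes of at least 3 Foxp3 T cells, 10 of 1210 were called (0.826%): Il1r2, Ikzf2, Tnfrsf9, Hopx and Tnfrsf4 higher (0.413%), and Ccl5, Gzmk, Ms4a4b, Nkg7 and Sub1 lower. On leaving out a node that count ran from 2 to 45, with 45 without Eµ-TCL1 node 3. Ikzf2 was at 487 and 546 against 82.7 and 68.2 CPM (2.76 ± 0.31), and Tnfrsf9 at 844 and 590.2 against 115 and 147 CPM (2.43 ± 0.27). Lrrc32 was at 195 and 88.5 against 13.5 and 5.14 CPM (3.88 ± 0.65). Each was more than the spread between the 2 nodes, as in spleen.

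Among the node genes, Il2ra could be tested and was higher, at 141 and 73.8 against 21.1 and 36 CPM (1.91 ± 0.55, adjusted p = 0.0366). Tnfrsf4 (1.11 ± 0.18), Tnfrsf18, the receptor GITR (0.83 ± 0.24), Izumo1r (1.37 ± 0.35), Areg (1.75 ± 0.42) and Penk (1.66 ± 0.38), which missed in spleen, passed here. With 6 nodes of at least 3 Foxp3 T cells only Tnfrsf4 of these passed: Tnfrsf18 was at 0.67 (adjusted p = 0.651) and Izumo1r at 1.23 (adjusted p = 0.234), while Il2ra, Areg and Penk were too low to test. In the 2 nodes, of 22 surface genes 17 were tested, 7 were higher and 0 lower (median 0.66 against -0.02 over all genes), whereas in the 6 nodes 2 of 13 tested were higher. Of 16 TNF receptor and NF-kB genes all were tested and 4 were higher (median 0.60; 2 of 11 in the 6 nodes), Nfkbia at 1.15 ± 0.18 among them. Of the 9 B-cell markers, 4 were tested in the 2 nodes and 1 was higher, Cd74 (1.26 ± 0.22, adjusted p = 1.49e-06), with a median of -0.18. Their summed levels there were 952 and 1180 CPM in Foxp3 T cells against 315 and 879.7 CPM in Cd4 T cells, and their part in the node results was not tested. Ecm1 (3.28 ± 0.88), Dgat2 (3.07 ± 0.90) and Tmbim1 (2.18 ± 0.63), the first an extracellular matrix protein and the second an enzyme of triglyceride synthesis, were among the leading node genes, and of these only Tmbim1 was tested in spleen (0.95 ± 0.33, adjusted p = 0.142). A difference between tissues was tested only with libraries of at least 3 Foxp3 T cells, where 1 of 2309 genes passed (0.0433%), the T-cell receptor segment Trbv16.

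Some lower node genes were not seen in the Foxp3 T cells at all. Trbv17, Trbv13-1, Cxcr6, Igfbp4 and Pop4 had no UMI in the Foxp3 sums of these nodes, so their fitted folds are not given. Gcg, the glucagon precursor, was at 0 and 14.8 CPM in Foxp3 T cells and at 1267 and 781 CPM in Cd4 T cells, which is 0 and 1 UMI against 659 and 607, so no fold is given. It was at 0 in the Cd4 T cells of 4 spleens and 71.8 CPM in Eµ-PRMT5/TCL1 spleen 4. Ccl5 (-1.67 ± 0.13), Gzmk (-1.72 ± 0.27) and Nkg7 (-0.93 ± 0.18) were lower here too, whereas Fos, at -1.55 in spleen without passing there, was higher (1.22 ± 0.35, adjusted p = 0.0365).

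Summing both tissues per mouse, an alternative chosen after the data were seen, brought Eµ-TCL1 mice in and gave 11 mice. Of 1949 genes 94 passed (4.82%), 54 higher (2.77%) and 40 lower (2.05%). Tnfrsf9 (2.47 ± 0.14, adjusted p = 1.37e-09), Ccr8 (2.42 ± 0.40), Ikzf2 (2.14 ± 0.21), Capg (1.35 ± 0.13), Hopx (1.45 ± 0.16) and Ctla4 (1.27 ± 0.25) were higher. Areg (2.00 ± 0.41, adjusted p = 0.00626) passed over these 11 of 13 mice, as did Izumo1r (1.03 ± 0.26). Ccl5 (-2.87 ± 0.49), Gzmk (-2.77 ± 0.42), Eomes (-1.93 ± 0.35) and Nkg7 (-1.85 ± 0.30) were lower. The integrin chains Itga4 (-0.93 ± 0.17) and Itgal (-0.72 ± 0.19), S1pr1 (-0.68 ± 0.17) and the costimulatory receptor Cd28 (-0.60 ± 0.15) were lower with this larger number of mice.

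Shares of cells with a transcript were set side by side as means over the 7 libraries, with each cell thinned to 1500 UMIs so that depth is equal, and without a test. Pooled shares are not used for this, since Eµ-TCL1 spleen 1 alone gave 904 of the 2768 Cd4 T cells. Tnfrsf9 was expected in 64.0% ± 9.21 (SD, n = 7) of Foxp3 T cells, 18.6% ± 5.91 of Cd4 T cells and 0.277% of B cells. Without thinning and pooled over all libraries the Tnfrsf9 shares were 78.7%, 31.9% and 1.61%. Ikzf2 stood at 59.96% ± 7.08 against 13.4% ± 6.02, and Tnfrsf4 at 75.8% ± 10.8 against 52.1% ± 14.2. The libraries of the 2 classes did not overlap for Tnfrsf9 and Ikzf2 but did for Tnfrsf4. Lrrc32 reached 25.5% ± 11.8 against 2.37% ± 0.895, Ikzf4 16.6% ± 4.11 against 2.18% ± 1.47, Itgae, the integrin CD103, 11.4% ± 6.31 against 0.544% ± 0.551, and Il1rl1, the IL-33 receptor, 7.64% ± 6.51 against 0.106% ± 0.149. Flicr, a long non-coding RNA transcribed beside Foxp3, stood at 9.61% ± 7.46 in Foxp3 T cells, 0.146% ± 0.191 in Cd4 T cells and 0.033% in B cells. Its values per library were 44.7, 90.2, 140, 39.2 and 35.7 CPM in spleen and 32.5 and 29.5 CPM in node, against at most 2.41 CPM in any Cd4 sum. Reads of Flicr and Foxp3 may share a locus, and the rule used Foxp3.

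Other transcripts had lower mean shares in Foxp3 T cells, with wide spread among the Cd4 T cells of the 7 libraries. Gzmk stood at 8.19% ± 9.71 against 33.8% ± 23.4, Ccl5 at 26.4% ± 9.23 against 44.4% ± 23.01, Nkg7 at 17.8% ± 15.8 against 37.4% ± 27.6 and Eomes at 3.53% ± 3.25 against 17.5% ± 12.7. The ranges of the 2 classes overlapped for each. Lag3, an inhibitory receptor, differed by less than its spread, at 15.4% ± 8.49 against 18.3% ± 8.66. Il10 stood at 8.57% ± 5.02 against 4.05% ± 2.75 and in B cells at 7.08% ± 5.06. Mki67, a proliferation marker, stood at 3.96% ± 4.19 against 4.11% ± 3.35.

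**Figure D4:**
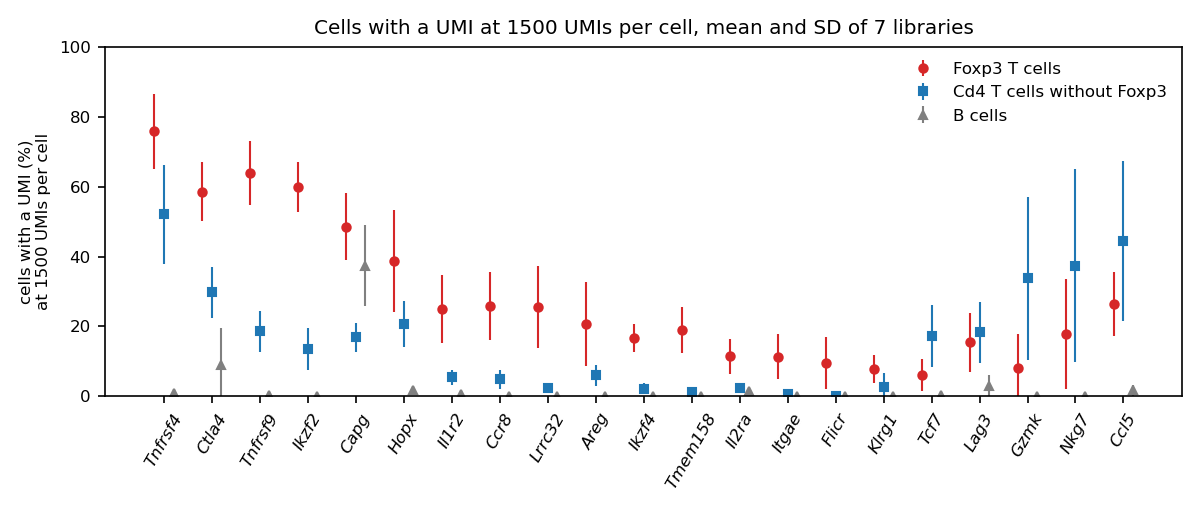
Expected share of cells with at least 1 UMI after thinning to 1500 UMIs per cell, for 21 genes in Foxp3 T cells (red circles), Cd4 T cells (blue squares) and B cells (grey triangles), as the mean and SD of 7 libraries. For the genes left of Tcf7 the mean of Foxp3 T cells lies above that of Cd4 T cells, and for Tcf7 and the 4 genes right of it below, with overlapping bars for each of these 5 genes.

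Between genotypes, the only contrast with at least 10 Foxp3 T cells per library was 2 Eµ-PRMT5/TCL1 against 3 Eµ-PRMT5 spleens. edgeR called 0 of 1492 genes (98 at an unadjusted p under 0.05), and DESeq2 called 1 (0.067%). The count depended on Eµ-PRMT5/TCL1 spleen 1: without it edgeR called 221 of 2636, and without spleen 4 of that genotype 5 of 1771. Each leaves 1 Eµ-PRMT5/TCL1 library, whose spread is assumed equal to that of the Eµ-PRMT5 spleens. When cells needed 3000 UMIs, spleen 1 fell to 7 Foxp3 T cells and dropped out as well, and 161 of 2303 genes were called. The values of 358 genes (24%) did not overlap between the groups, which with 2 against 3 libraries is frequent without any difference. Gzmb, the cytotoxic protease granzyme B that Tregs can also use, was the gene DESeq2 called (adjusted p = 1.35e-05). It was at 470.2 and 892 CPM in Eµ-PRMT5/TCL1 and at 26.8, 45.1 and 0 CPM in Eµ-PRMT5 Foxp3 T cells, a log2 difference of 4.64 (edgeR adjusted p = 0.0701). With libraries of at least 3 Foxp3 T cells, edgeR gave 3.72 (adjusted p = 0.0305), the 1 gene of 2313 called (0.0432%). That call was lost on leaving out Eµ-PRMT5 spleen 1, 2 or 3 or Eµ-PRMT5/TCL1 spleen 2 or 4 (adjusted p up to 0.253). The Cd4 T cells of the same spleens had 536 and 1115 against 1.81, 4.11 and 10.02 CPM, so a gap in the same direction was present in Cd4 T cells. In the 2 Eµ-PRMT5/TCL1 nodes Gzmb was at 195 and 339 CPM in Foxp3 and 173 and 312 CPM in Cd4 T cells.

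Whether the Foxp3-to-Cd4 change differed between the same genotypes was tested as an interaction, and 5 of 4370 genes passed (0.114%), 3 with a positive difference (0.0686%) and 2 with a negative one (0.0458%). Tnfrsf4 was at 2449 and 1739 CPM in Foxp3 T cells against 719.8 and 556 CPM in Cd4 T cells of the Eµ-PRMT5/TCL1 spleens. In the Eµ-PRMT5 spleens 1694, 646 and 1008 CPM stood against 1474, 941 and 1573 CPM. OX40 was thus higher in Foxp3 T cells of both Eµ-PRMT5/TCL1 spleens and in 1 of 3 Eµ-PRMT5 spleens (difference of log2 changes 2.03 ± 0.29, adjusted p = 0.00704). Ccr7, which guides cells into lymphoid T-cell zones, was at 1548 and 936 against 949.5 and 260.1 CPM in Eµ-PRMT5/TCL1, and at 362, 15 and 168 against 801, 518 and 382 CPM in Eµ-PRMT5 (2.93 ± 0.51, adjusted p = 0.0314). It was higher in Foxp3 T cells of both Eµ-PRMT5/TCL1 spleens and lower in all 3 Eµ-PRMT5 spleens. A Ccr7 UMI was also expected in 34.9% ± 21.7 of B cells, against 29.6% ± 22.3 of Foxp3 and 21.96% ± 8.44 of Cd4 T cells (thinned to 1500 UMIs, SD over 7 libraries). The 4 tested B-cell markers all had positive differences here (median 0.72 against -0.05 over all genes, 0 called), whereas with at least 3 Foxp3 T cells per library 0 of 4 were positive (median -0.85) and Ccr7 still passed. Their part in the result was not tested. Klrg1, a receptor of terminal effector cells, went the other way (-4.14 ± 0.72, adjusted p = 0.0314). It was at 179, 105 and 42 against 7.83, 4.11 and 1.11 CPM in Eµ-PRMT5, whereas Eµ-PRMT5/TCL1 spleen 1 had none in either class and spleen 4 had 125 against 97.7 CPM. Dusp14 (3.57 ± 0.68) and the monocyte gene Lyz2 (-3.12 ± 0.56) were the others.

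These 5 differences rested on few spleens, and leaving out an Eµ-PRMT5/TCL1 spleen leaves 1 library there, with its spread assumed equal to the others. Without Eµ-PRMT5/TCL1 spleen 1 only Klrg1 of the 5 kept an adjusted p under 0.05, and without spleen 4 none did (Tnfrsf4 0.106 and 0.127). Without Eµ-PRMT5 spleen 1 only Tnfrsf4 did, and Lyz2, at 1041 CPM in the Foxp3 T cells of that library and 0 in those of Eµ-PRMT5 spleens 2 and 3, turned to 0.98. With at least 3 Foxp3 T cells per library (9 spleens), 6 of 4516 genes passed (0.133%), 3 in each direction (0.0664%). Tnfrsf4 (2.12, adjusted p = 0.0107), Ccr7 (3.19, adjusted p = 0.0107) and Lyz2 (-4.81, adjusted p = 0.0107) were among them, joined by Tnfrsf18 (1.55, adjusted p = 0.03) and by 2 genes of myeloid cells, Cybb (-5.46) and Fcer1g. The latter had no UMI in the Foxp3 T cells of Eµ-PRMT5/TCL1, so its fold is not given. Klrg1 (-3.23) and Dusp14 (2.99) did not pass in that fit (adjusted p = 0.0668 for each).

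**Figure D5:**
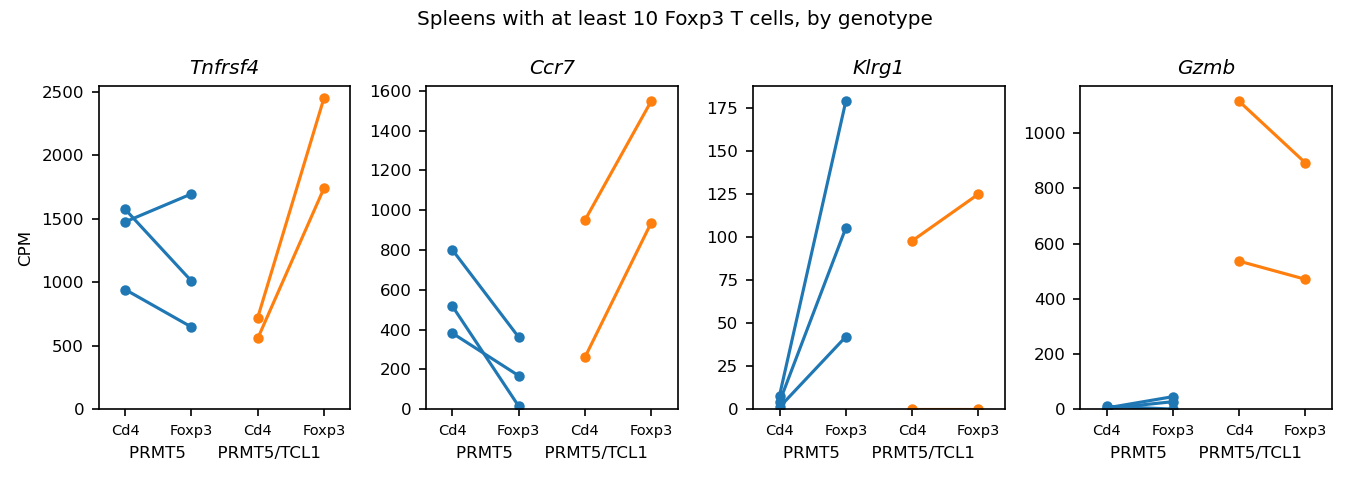
CPM of 4 genes in the Cd4 and Foxp3 T cells of 3 Eµ-PRMT5 spleens (blue) and 2 Eµ-PRMT5/TCL1 spleens (orange), with a line joining the classes of a library. Tnfrsf4 and Ccr7 slope upward in both Eµ-PRMT5/TCL1 spleens; Gzmb is high in both classes there.

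Contrasts with Eµ-TCL1 needed the limit of 3 Foxp3 T cells per library, and then in spleen only Eµ-TCL1 spleen 1 (8 cells) stood for that genotype, with its spread assumed equal to the other groups. Between Eµ-PRMT5 spleens and that library edgeR gave 2 of 2313 genes (0.0865%), Gzmb (-4.67) and Nkg7 (-4.11), both higher in that library, which describes 1 library and not its genotype. Without Eµ-PRMT5 spleen 1 or 2 it was 0 genes, and without spleen 5 it was 1. The values of 909 genes (39.3%) did not overlap in that contrast, where 1 side is a single library and such separation is frequent without any difference. Against it, Eµ-PRMT5/TCL1 spleens differed at 0 of 2313 genes in edgeR. In lymph node 0 of 771 genes passed between Eµ-PRMT5/TCL1 and Eµ-TCL1, and 0 of 705 between node and spleen of the same 4 mice. At an unadjusted p under 0.05 these 3 contrasts had 76, 57 and 41 genes, and DESeq2 also called 0 in each.

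The T-cell receptor segments of the Cd4 T cells set apart the libraries of 1 Eµ-TCL1 mouse. In Eµ-TCL1 spleen 1, 808 of 895 Cd4 T cells with a Trbv UMI had Trbv17 as their leading segment (90.3%), and in lymph node 1 of the same mouse 210 of 261 did (80.5%). None of the 11 Foxp3 T cells with a Trbv UMI in these libraries had a Trbv17 UMI. Pooled over these libraries of 1 mouse, that allows up to 27.3% of cells with such a UMI and sets no limit on cells that use the segment. The 6 in spleen used 6 different Trbv genes. Trbv17 also led in Eµ-TCL1 node 2 (58.3% of 36 cells) and in Eµ-PRMT5/TCL1 node 4 (24.6% of 175), but not in Eµ-TCL1 spleens 2, 3 and 4 or node 3, where Trbv20 (4 of 18 cells), Trbv26 (7 of 19), Trbv13-1 (2 of 6) and Trbv1 (2 of 7) led. In the mouse of Eµ-TCL1 spleen 1 the 0.877% share of Foxp3 T cells was therefore a share of Cd4 T cells that were mostly of 1 Trbv segment. Over the 6 libraries with at least 10 cells of each class that held a Trbv UMI, 5.46% ± 1.65 (SD) of pairs of Foxp3 T cells shared a Trbv gene against 7.70% ± 1.61 of pairs of Cd4 T cells, lower in 5 of 6 (exact sign-flip permutation p = 0.0938, smallest possible 0.0313).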

How the data were processed

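Viable cells of spleen and sub-mandibular lymph node were profiled by droplet 3′ scRNA-seq. The authors aligned and counted reads with Cell Ranger and deposited 1 matrix of raw UMI counts per gene and barcode for each of the 20 libraries, not filtered for cells. The submitters' processing notes name Cell Ranger 2.0.1, Seurat 2.2.1 and GRCm38, whereas the matrix headers name 3.1.0. Whether human PRMT5 and TCL1 transcripts were counted by the mouse annotation is not known. The members, gene lists and tests were chosen with earlier results of these data known.

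Barcodes were filtered and classed by the counts given above, with no clustering and no doublet caller. A Cd4 T cell without a Foxp3 UMI can be a Foxp3 cell missed at this depth. UMIs were summed per library and class. edgeR 4.0.16 (quasi-likelihood test, TMM, filterByExpr, library as a block, Benjamini-Hochberg adjustment) was the test, on libraries with at least 10 Foxp3 T cells, and DESeq2 1.42.0 an alternative. All adjusted p-values of genes are from edgeR unless DESeq2 is named. The genes that define the gate entered the sums and were not tested. Tests with at least 3 cells per library, sums per mouse and single-library exclusions in the interaction were added after the data were seen. Named genes were, for each tissue, the 10 called genes with the largest positive and the 10 with the largest negative log2 change that had a mean of at least 50 CPM in the higher class and the same direction in at least 80% of libraries, and up to 8 each way, by the same mean, in other contrasts. Gate, immunoglobulin, haemoglobin, sex-linked and predicted genes were left out of that ranking. Members of 19 fixed lists could be named with their values whether or not they passed. Shares were compared by exact permutation over libraries, or by exact sign flips over mice, and their 95% exact binomial (Clopper-Pearson) intervals and the floor of 3 counts cover counting error only. On simulated counts for the spleen comparison (2914 genes), edgeR recovered 73.6% of genes changed by 1 and 98.8% of those changed by 2 on the log2 scale. The labels do not say that replicate numbers mark a shared litter or day, and deviations of same-numbered spleens correlated at 0.062 to 0.112. R 4.3.3, Python 3.11.15 and SciPy 1.17.1 were used. Some results are not reported here.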

Additional observations from a re-analysis of the deposited data

Results flagged for a closer look

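Eµ-TCL1 spleen 1, at 0.126% Foxp3 T cells of all cells, stood apart from the other 3 Eµ-TCL1 spleens (0.0175 to 0.0290%). Nmrk1 stood apart in Eµ-PRMT5/TCL1 spleen 1, with a log2 ratio of Foxp3 to Cd4 T cells (20 CPM added) of 0.28 while the other 4 spleens were lower. In all, 24 sample groups were checked this way, and some may stand out by chance, at a rate not determined here.

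When the change in Eµ-PRMT5/TCL1 spleens was set against that in spleens of Eµ-PRMT5, the differences of log2 changes were 2.03 for Tnfrsf4, 2.93 for Ccr7, 3.57 for Dusp14, -4.14 for Klrg1 and -3.12 for Lyz2, each dependent on single spleens as given above.

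With Eµ-TCL1 spleen 1 as the only library of its genotype (8 Foxp3 T cells), the change in Eµ-PRMT5 spleens differed from that in this library for 5 of 4516 genes, with its spread assumed equal to the others, so the values describe that library and not the genotype. Penk (-6.18), Tnfsf8 (-5.60), Areg (-3.82) and Socs1 (-3.37) were relatively higher in its Foxp3 T cells. Mean levels of Penk were 332 CPM in Foxp3 and 260 CPM in Cd4 T cells of Eµ-PRMT5, against 3022 and 35.6 CPM in that library. Trbv17 (13.48) reflected 4397 CPM in its Cd4 T cells and 0 in its Foxp3 T cells. Its fitted value is no bound.

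Eµ-PRMT5/TCL1 spleens differed from the same single library for Penk (-4.94), Ctla2a (-5.38), Alox5ap (-5.01), Tyrobp (-5.97) and Fcer1g (-11.98, from 0 in the Foxp3 T cells of Eµ-PRMT5/TCL1, so no bound). Tyrobp and Fcer1g encode signalling adaptors of myeloid and NK cells. Between node and spleen libraries, Trbv16 differed by -5.29. Its means were 13.9 CPM in Foxp3 and 65.5 CPM in Cd4 T cells of node, against 534 and 64.9 CPM in spleen. Both libraries of a mouse entered as separate blocks, so this test was not paired by mouse. In Eµ-PRMT5/TCL1 spleen 1 Trbv16 led in 3 of 8 Foxp3 T cells with a Trbv UMI, so the spleen mean can rest on few cells.

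A Foxp3 UMI was also present in 0.269% of T cells with Cd8 UMIs, a class the comparisons above do not use, against 0.116% of B cells.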

How the results depend on the processing

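Among the alternatives for genes named above, 960 kept direction and side of the threshold, 374 lost the call, 37 gained one and 1 reversed (Lyz2, from 0.98 without Eµ-PRMT5 spleen 1 to -8.16 without Eµ-PRMT5/TCL1 spleen 4). Alternatives in which a gene was too low to test are not counted. In spleen, Lrrc32, Tmem158 and Matk had only 14 alternatives and Lamc1 13, against 29 for Tnfrsf9. In spleen, 86 calls became 379 without a low-count filter, 160 with at least 2 Foxp3 UMIs (2 spleens left of 5), 186 under 2 times the T-cell median UMIs (4 left), 7 with no replicate block by library, and 44 to 79 on leaving out a library. With at least 3 cells per library the spleen gave 48 with a Cd4 UMI required, 141 under 2 times the median, 33 with no Cd79 UMI, 32 with at least 2 Foxp3 UMIs, and 21 to 73 on leaving out a library (25, 26, 43, 46 and 55 among them).

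In node, 67 calls became 11 with DESeq2, 8 under 2 times the median and 7 with no replicate block. With at least 3 cells the node gave 10, with DESeq2 15, with a Cd4 UMI 0, under 2 times the median 18, with no Cd79 UMI 3, with at least 2 Foxp3 UMIs 0, and 2 to 45 on leaving out a library (4, 5, 6 and 8 among them, and 45 without Eµ-TCL1 node 3).

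Between Eµ-PRMT5/TCL1 and Eµ-PRMT5 Foxp3 T cells, 0 calls became 161 at 3000 UMIs (which also drops Eµ-PRMT5/TCL1 spleen 1), 24 without filter, 1 with DESeq2, 1 at 3 cells, 2 with both, 10 with the replicate number as a block at 3 cells, 0 to 221 on leaving out a library (221 without Eµ-PRMT5/TCL1 spleen 1) and 0 to 4 doing so at 3 cells. Eµ-PRMT5 against Eµ-TCL1 gave 0 to 2 and the node genotypes 0 to 11 on leaving out a library. The interaction gave 23 at 3000 UMIs, again without that spleen, and 1 to 17 on leaving out a library.

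For shares, leaving out Eµ-PRMT5 spleens 4 and 5 gave a difference of 0.6945 points, from which no p is read since these are the libraries within the range of Eµ-TCL1. Node against spleen gave 0.0646 under 2 times the median, and -0.0003024 of all cells and -0.1031 of lineage cells with at least 2 Foxp3 UMIs. Of all T cells, differences were 1.438 (Eµ-PRMT5 against Eµ-TCL1), 0.4446 (Eµ-PRMT5/TCL1 against Eµ-TCL1) and 0.2415 (node genotypes), and the last was 2.297 of lineage cells with at least 2 Foxp3 UMIs. These use libraries with at least 50 Cd4-lineage cells, a single Eµ-TCL1 library in each tissue. Over all libraries the mean share of T cells was 1.08% in Eµ-PRMT5, 0.176% in Eµ-TCL1 and 1.76% in Eµ-PRMT5/TCL1 spleens. In node it was 0.440% in Eµ-TCL1 and 0.865% in Eµ-PRMT5/TCL1. The causes were not tested.

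A minimum of 30 cells could not be run in any fit, nor 10 cells for contrasts with Eµ-TCL1 or between tissues, nor 3000 UMIs or 2 Foxp3 UMIs in node at 10 cells, nor the number block for Eµ-PRMT5/TCL1 against Eµ-PRMT5 at 10 cells. The genotype comparison of expression rests on 5 spleens with 10 to 37 Foxp3 T cells each, which limits what it can detect.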

Other observations

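Itgae and Il10 were too low to test in spleen but had values in every library. Itgae, the integrin CD103, was at 49.2, 240.4, 112, 58.8 and 26.8 CPM in Foxp3 T cells of the 5 spleens and 32.5 and 73.8 CPM in the 2 nodes, against at most 9.62 CPM in any of their Cd4 T cells. Penk, whose product is the opioid peptide precursor proenkephalin and which was tested in spleen without passing, was at 98.3, 465.8, 686, 1587 and 1043 CPM in the spleens against 183, 86.3, 611, 482 and 171 CPM, lower in Eµ-PRMT5 spleen 1 and higher in the other 4. Il10 was at 285 CPM in Eµ-PRMT5/TCL1 spleen 4 and 260 CPM in lymph node 3, and at 4.47 to 58.8 CPM in the other 5 libraries.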
